A study of Rattus norvegicus with 6 samples.

Results

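The integrated stress response was followed in rat kidney through 8 genes, Ddit3, Atf4, Xbp1, Herpud1, Asns, Trib3, Ppp1r15a and Eif2ak3. All probe sets carrying 1 of these symbols in the platform annotation were taken, which gave 10 of the 31042 non-control probe sets and 8 of the 14217 named genes. Trib3 had 3 probe sets (1370694_at, 1370695_s_at and 1386321_s_at). Each other gene had 1, which was 1369590_a_at for Ddit3, 1367624_at for Atf4, 1371249_at for Xbp1, 1367741_at for Herpud1, 1387925_at for Asns, 1370174_at for Ppp1r15a and 1368326_at for Eif2ak3. The genes were chosen with earlier results from these same arrays known, so their differences between the strains are given as a description.

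Kidney RNA came from male congenic rats and from male Dahl salt-sensitive (S) rats. The congenic strain carries a segment of chromosome 9 from the Dahl salt-resistant (R) strain on the S background. By that design the rest of its genome is that of the control strain, which was not tested here. All rats shared a birth date, left their dams at 30 days of age, ate a diet with 2% salt in cages of 1 congenic and 1 S rat, and were killed at 53 days. Of 6 rats a strain, the RNA of 2 was pooled for each array, which left 3 congenic and 3 S arrays (Affymetrix Rat Genome 230 2.0). In RefSeq's GRCr8 annotation, Ddit3 and Atf4 lie on chromosome 7, Asns and Eif2ak3 on chromosome 4, Trib3 on chromosome 3, Xbp1 on chromosome 14, Herpud1 on chromosome 19 and Ppp1r15a on chromosome 1, so none lies on chromosome 9. The question was whether the stress transcription factors and the amino acid response targets differ between the strains in the same direction.

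The integrated stress response begins with kinases that phosphorylate the translation factor eIF2. PERK, the product of Eif2ak3, does so when unfolded proteins collect in the endoplasmic reticulum (ER), and GCN2 does so when amino acids run short. General translation then slows, while the mRNA of Atf4 is translated more. The ATF4 protein, with C/EBP partners, binds the promoters of Asns, Trib3 and Ddit3, and the phosphatase subunit GADD34, made from Ppp1r15a, closes the loop by bringing phosphate-free eIF2 back. Xbp1 belongs to the parallel IRE1 branch of the unfolded protein response, and Herpud1, an ER membrane protein of protein degradation, is induced by both. Tubule cells of the kidney make and turn over large amounts of membrane transporters, and their stress response is often studied in renal injury. Transcript arrays see neither the phosphorylation of eIF2 nor the spliced form of Xbp1 mRNA as such.

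Promoter sequences are shown for Ddit3, Xbp1 and Herpud1, which were higher on the congenic arrays, and for the amino acid response targets Asns, which was lower, and Trib3. They are RefSeq's on GRCr8, and run from 200 bases upstream to the last base before the annotated start, 5′ to 3′ on the gene's strand, with the motif matches in capitals. The windows are chr7:65001495-65001694 (plus strand) for Ddit3, chr14:84604423-84604622 (plus strand) for Xbp1, chr19:10614708-10614907 (minus strand) for Herpud1, chr4:36769416-36769615 (minus strand) for Asns and chr3:161275534-161275733 (minus strand) for Trib3.
Ddit3: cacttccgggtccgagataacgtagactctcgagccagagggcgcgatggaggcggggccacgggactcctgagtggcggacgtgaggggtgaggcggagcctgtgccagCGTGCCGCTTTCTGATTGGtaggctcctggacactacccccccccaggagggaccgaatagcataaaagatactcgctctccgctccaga
Xbp1: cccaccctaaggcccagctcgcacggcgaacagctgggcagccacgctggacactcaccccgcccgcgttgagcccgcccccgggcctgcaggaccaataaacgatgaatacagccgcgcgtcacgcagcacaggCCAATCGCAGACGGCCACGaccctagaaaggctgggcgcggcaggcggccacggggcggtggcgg
Herpud1: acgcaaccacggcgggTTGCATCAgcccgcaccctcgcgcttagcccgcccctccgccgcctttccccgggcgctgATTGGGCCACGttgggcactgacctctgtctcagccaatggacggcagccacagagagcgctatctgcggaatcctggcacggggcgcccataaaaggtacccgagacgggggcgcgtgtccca
Asns: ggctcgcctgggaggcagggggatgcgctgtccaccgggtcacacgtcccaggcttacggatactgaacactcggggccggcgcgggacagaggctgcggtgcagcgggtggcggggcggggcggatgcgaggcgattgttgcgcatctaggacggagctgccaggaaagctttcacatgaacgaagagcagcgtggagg
Trib3: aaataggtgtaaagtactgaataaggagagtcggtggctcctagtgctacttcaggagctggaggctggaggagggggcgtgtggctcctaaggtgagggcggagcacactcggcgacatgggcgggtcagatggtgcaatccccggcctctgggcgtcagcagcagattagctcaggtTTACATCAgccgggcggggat

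These stretches were searched on both strands, with the 300-base promoters of all 8 members and of all 33469 entries of the RefSeq promoter table. The ER stress response element (CCAAT and CCACG with 9 open bases between them) was found in Xbp1, 65 to 47 bases upstream of the start, and in 0.0657% of all promoters. With 1 more base left open (CCAAT and CACG with 10 open bases between them), a form looked for after the sequence had been read and overlapping the first, it was also found in Ddit3 on the opposite strand, 90 to 72 bases upstream, and in 0.197% of all promoters. Herpud1 held the compact form of that element (ATTGG and CCACG with 1 open base between them), 124 to 114 bases upstream, which 0.0508% of promoters hold. The core of the C/EBP-ATF response element, TGATGNAA, through which ATF4 acts, was found in Herpud1 (184 to 177 bases upstream) and in Trib3 (21 to 14 bases upstream), each on the opposite strand, and in 3.98% of all promoters. Ddit3, Xbp1, Asns, Atf4, Ppp1r15a and Eif2ak3 had no match to these letters. Asns, Atf4 and Eif2ak3 had no match to any of the motifs searched. A cyclic AMP response element, TGACGTCA, lay in Ppp1r15a 66 to 59 bases upstream (1.83% of promoters), and no member held the XBP1 site core TGACGTGG (0.595% of promoters). A match is a stretch of letters and not a measured binding site.

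Spearman correlations between arrays lay between 0.969 and 0.977 across probe sets, and median signals between 42.9 and 46.0. Kidney tubule markers were present on every array, with the 8 measured markers (among them Umod, Lrp2 and Aqp2) summing to 27215 to 27643 on the congenic arrays and 26420 to 27855 on the S arrays. Of these 8, Aqp2, the water channel of the collecting duct, measured 3002, 3418 and 3175 on the congenic arrays and 2817, 2466 and 2883 on the S arrays, higher in congenic without overlap (log2 fold change 0.23, SE 0.070), and Kcnj1 was at 0.26 (SE 0.13) with overlap. Some arrays carried transcripts of other organs. The 7 hepatocyte markers, led by Alb, summed to 9432 on congenic replicate 1, 137 on congenic replicate 2 and 132 on congenic replicate 3, against 106 to 197 on the S arrays. The 5 adrenal cortex markers measured, among them Cyp11a1 and Star, summed to 5506 on congenic replicate 3, 137 on congenic replicate 1 and 141 on congenic replicate 2, against 128 to 142 on the S arrays. All 5 tested urothelial and all 5 tested fat markers had negative log2 fold changes, with medians of -0.29 and -0.18. The 6 urothelial markers measured summed to 423 to 495 on the congenic arrays against 517 to 570 on the S arrays, and the 6 fat markers to 1172 to 1693 against 1460 to 1905. The 4 smooth muscle markers summed to 342 to 431 on the congenic arrays against 389 to 486 on the S arrays, and the 3 tested had log2 fold changes of -0.28 for Myh11, -0.23 for Des, without overlap, and 0.22 for Acta2. The part of these cells in the results was not tested. The signal ratio of the 3′ to the 5′ actin probe sets, which is higher in more degraded RNA, was 6.15, 6.64 and 7.17 on congenic replicates 1, 2 and 3 and 9.42, 8.13 and 6.54 on S replicates 1, 2 and 3. In RNA from whole kidney, fewer cells of a type and less RNA per cell cannot be told apart.

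Ddit3 encodes CHOP, the stress transcription factor downstream of ATF4. Its MAS5 signal, a linear array intensity, was 317, 331 and 304 on congenic replicates 1, 2 and 3, against 179, 257 and 239 on S replicates 1, 2 and 3. Every congenic array lay above every S array, and S replicate 1 lay well below the other two S arrays. The means were 317 ± 13.8 in congenic and 225 ± 41.0 in S pools (SD, n = 3 each), a ratio of 1.41. On the log2(signal + 16) scale used for all fold changes here, congenic minus S was 0.48 (SE 0.12).

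Atf4, the central factor of the pathway, measured 1377, 1405 and 1432 on congenic replicates 1, 2 and 3, against 1058, 1301 and 1234 on the S replicates in the same order. The groups did not overlap, and the congenic arrays lay closer together than the S arrays. The log2 fold change was 0.23 (SE 0.075), from means of 1405 ± 27.2 in congenic and 1198 ± 126 in S pools (SD, n = 3 each). Since ATF4 is controlled mainly at translation, its mRNA level is a partial readout of the factor.

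Xbp1 measured 1364, 1457 and 1429.6 on the congenic arrays and 1020.2, 1229 and 1304 on the S arrays, again with no overlap. Its log2 fold change was 0.26 (SE 0.084), from means of 1417 ± 47.7 in congenic and 1184 ± 147 in S pools (SD, n = 3 each). Herpud1, the ER stress target with both motif matches above, measured 1349, 1275 and 1283 on the congenic arrays and 994, 1130.1 and 1147 on the S arrays. Its groups did not overlap either, and its log2 fold change was 0.26 (SE 0.066), from means of 1302 ± 40.9 in congenic and 1090.4 ± 83.5 in S pools (SD, n = 3 each). In all 4 of these genes S replicate 1 had the lowest signal of the 6 arrays.

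Asns encodes asparagine synthetase, the classical target of the amino acid response, and it differed in the other direction. Its signal was 205, 192 and 157 on congenic replicates 1, 2 and 3, against 246, 245 and 222 on S replicates 1, 2 and 3. Every congenic array lay below every S array, with congenic replicate 3, the array with adrenal transcripts, lowest. The means were 185 ± 24.7 in congenic and 238 ± 13.4 in S pools (SD, n = 3 each), which made S 1.29 times congenic, and the log2 fold change was -0.34 (SE 0.10). S replicate 1, lowest for the 4 genes above, was the highest of the 6 arrays for Asns. The ratio of Ddit3 to Asns signal, set to a mean of 1 over the S arrays, was 1.63, 1.81 and 2.03 on the congenic arrays and 0.765, 1.10 and 1.13 on the S arrays. Ddit3 was higher and Asns lower in congenic, each without overlap, so this ratio had to separate the strains. It adds no evidence beyond the signals of each gene.

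**Figure D1:**
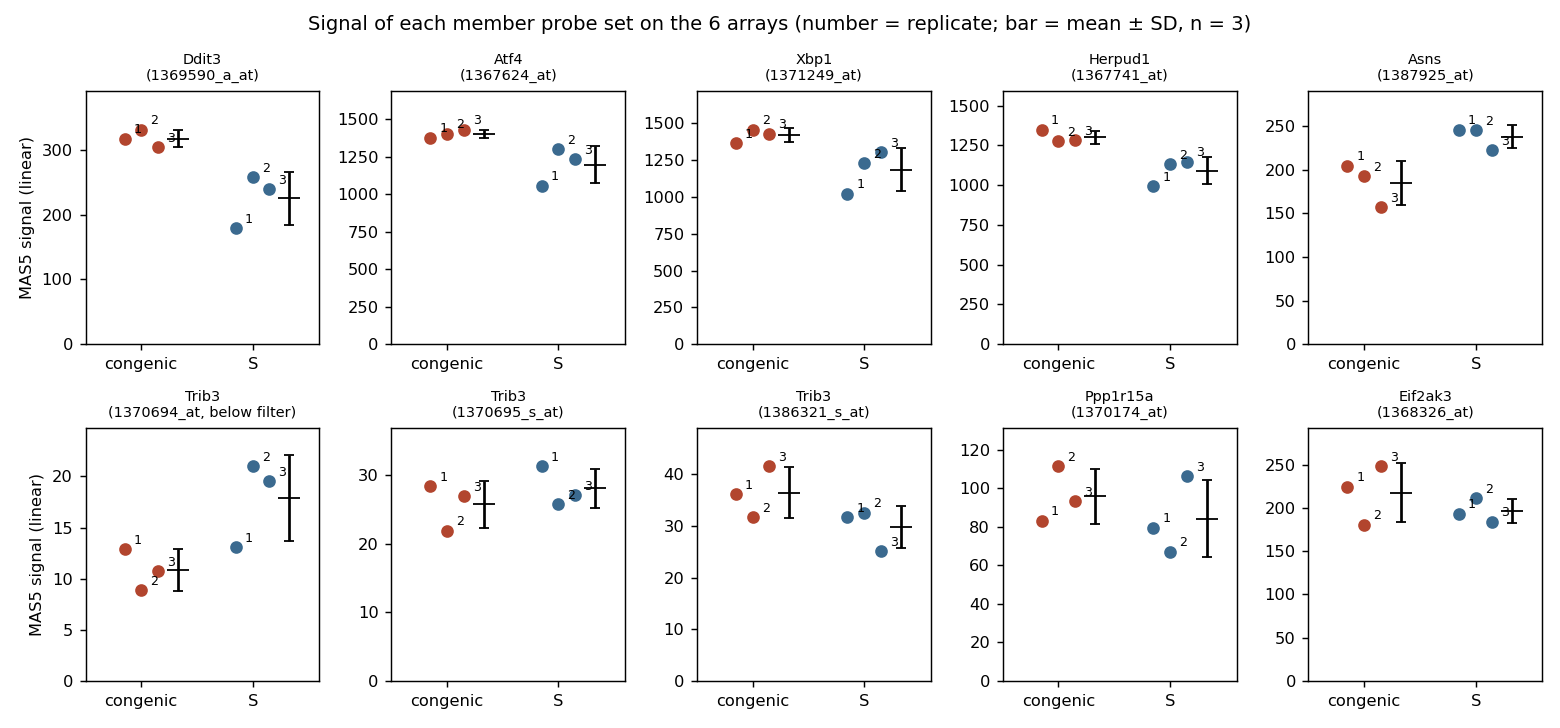
MAS5 signal on a linear axis from 0 for each of the 10 member probe sets, with congenic arrays at left and S arrays at right in each panel, the replicate number beside each point, and mean ± SD (n = 3) as a bar. The congenic points of Ddit3, Atf4, Xbp1 and Herpud1 lie above all S points and those of Asns below them, while the groups overlap for Ppp1r15a, Eif2ak3 and both tested Trib3 probe sets.

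Trib3, a pseudokinase induced by ATF4 and CHOP that dampens the response, was dim, and its probe sets gave no common direction. The brightest, 1386321_s_at, measured 36.1, 31.7 and 41.5 on the congenic arrays and 31.6, 32.5 and 25.1 on the S arrays, with overlap and congenic minus S at 0.20 (SE 0.14). The next, 1370695_s_at, measured 28.3, 21.9 and 26.9 on the congenic arrays and 31.3, 25.8 and 27.1 on the S arrays, also with overlap, and congenic minus S was -0.080 (SE 0.14). The third was left out of the fit, because its mean of 14.3 over all 6 arrays lay under the filter at a signal of 25.6, which the other 9 member probe sets passed. It measured 12.9, 8.84 and 10.7 on the congenic arrays and 13.1, 21.0 and 19.5 on the S arrays, lower in congenic without overlap, and no detection calls were used here that would tell such a level from background. The tested probe set nearest to that filter was the one at -0.080, with a mean of 26.9.

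The genes at the eIF2 step overlapped between the strains. Ppp1r15a measured 83.2, 112 and 93.2 on the congenic arrays and 79.6, 67.1 and 106 on the S arrays. Congenic replicates 1 and 3 lay within the range of the S arrays, and the log2 fold change was 0.17 (SE 0.15). Eif2ak3 measured 225, 181 and 248 on the congenic arrays and 194, 211 and 184 on the S arrays, a log2 fold change of 0.13 (SE 0.11). Congenic replicate 2 had the lowest and congenic replicate 3 the highest Eif2ak3 signal of the 6, so the spread among congenic arrays covered all S values. Its log2 fold change was 0.037 without congenic replicate 3 and 0.25 without congenic replicate 2.

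Of the 8 genes, each by its brightest probe set, 7 had a positive log2 fold change, where 47.4% of all 10658 genes tested did, and the median was 0.21 against -0.0068 for all genes. The groups did not overlap for 5 of the 8, 4 higher and 1 lower in congenic, where 12.7% of all genes did not overlap (5.63% higher and 7.07% lower). No member passed limma's test adjusted over all probe sets, with adjusted p-values of 0.657 to 0.929, and 0 of 18625 probe sets did (0%, smallest adjusted p = 0.164). At an unadjusted p under 0.05 limma called 1232 probe sets (6.61%). The members were picked from this contrast, so their shares are not read against these backgrounds.

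**Figure D2:**
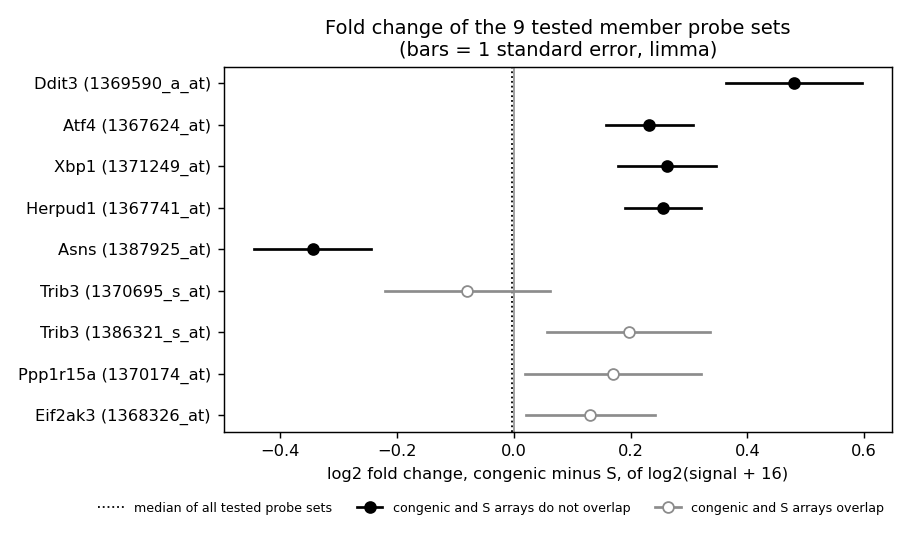
Log2 fold change, congenic minus S, of the 9 tested member probe sets on the log2(signal + 16) scale, with bars of 1 standard error from limma. Filled points mark probe sets whose arrays do not overlap: 4 at 0.23 to 0.48 and Asns at -0.34. Open points mark the 4 whose arrays overlap, from -0.080 to 0.20.

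The size of the upward differences depended on S replicate 1, where the actin ratio was highest. That array had the lowest signal of the 6 for 4 of the 8 members and for 20.7% of all tested genes, and the highest for 1 member, Asns, and for 22.2% of all tested genes. Without it, the log2 fold changes were 0.33 for Ddit3, 0.15 for Atf4, 0.16 for Xbp1 and 0.19 for Herpud1, and -0.32 for Asns. Asns depended most on congenic replicate 3, without which its log2 fold change was -0.24. Congenic replicate 2, on which neither the hepatocyte nor the adrenal markers stood out, gave 0.54 for Ddit3, 0.23 for Atf4, 0.30 for Xbp1, 0.23 for Herpud1 and -0.28 for Asns against the 3 S arrays. Against S replicates 2 and 3, the same genes in that order gave 0.39, 0.15, 0.20, 0.16 and -0.26. Both sets of values rest on 1 congenic array. The part of RNA integrity in the differences was not tested.

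**Figure D3:**
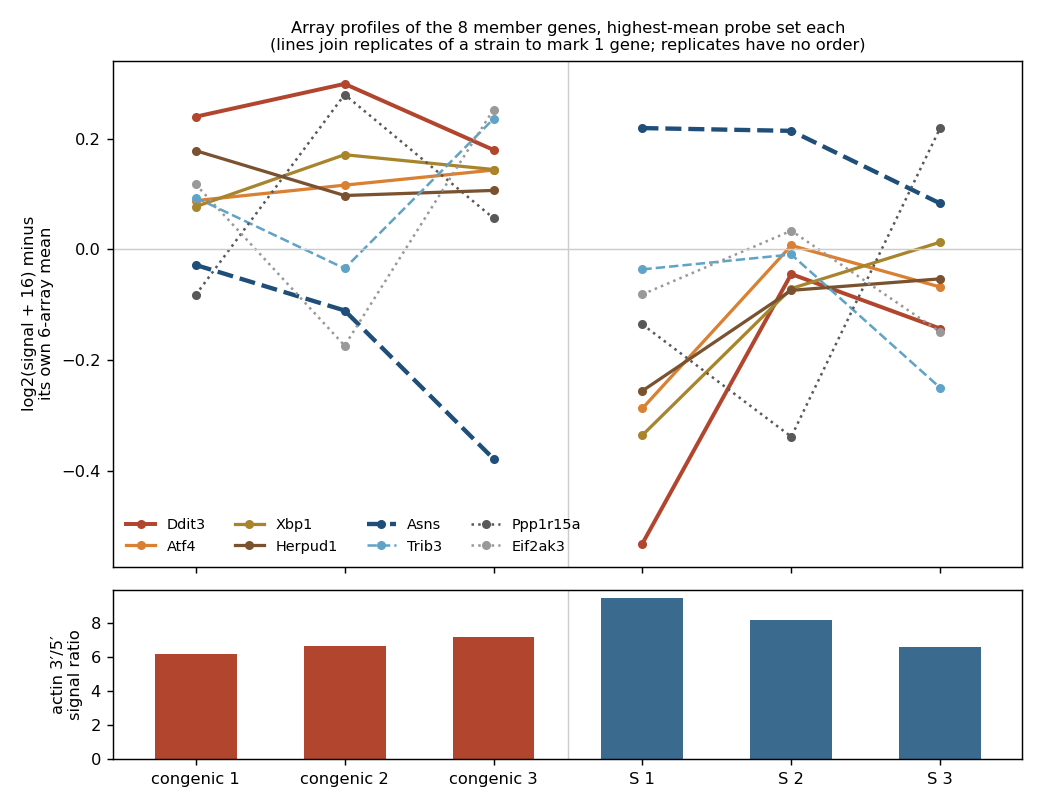
Deviation of log2(signal + 16) from each gene's own mean over the 6 arrays, for the 8 members by their brightest probe set (top), and the actin 3′ to 5′ signal ratio of each array (bottom, from 0). Congenic arrays are at left and S arrays at right, and lines only tie together the points of a gene. Ddit3, Atf4, Xbp1 and Herpud1 dip together on S replicate 1, where the actin ratio is 9.42 and Asns is at its highest.

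**Figure D4:**
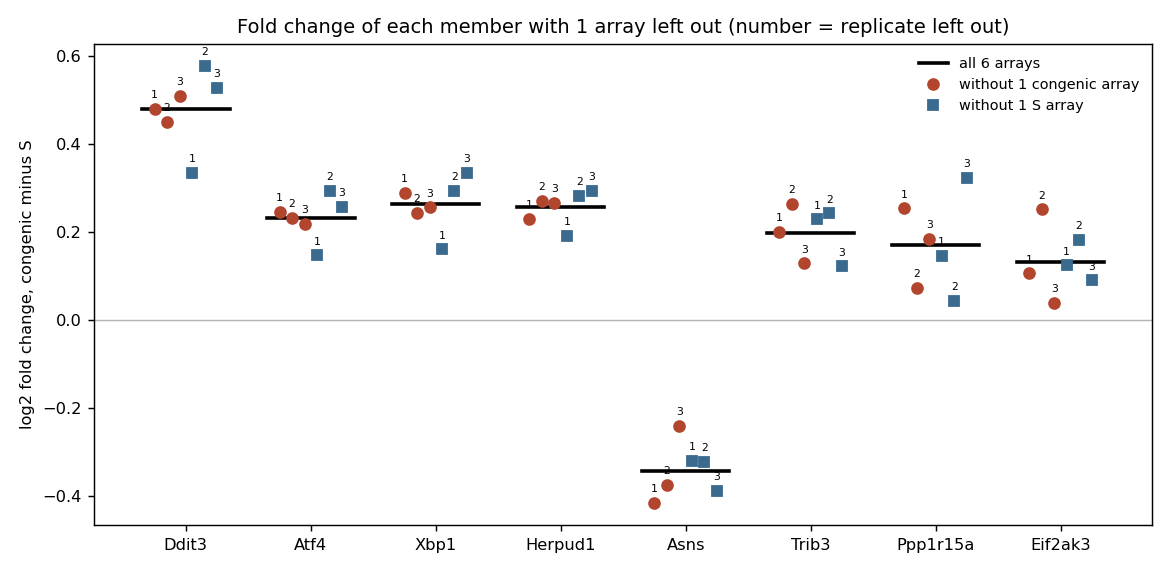
Log2 fold change, congenic minus S, of each member's brightest probe set with all 6 arrays (black bar) and with 1 array left out (circles, a congenic array; squares, an S array; number, the replicate left out). Ddit3 runs from 0.33 to 0.58 and Asns from -0.42 to -0.24, and every value of a member keeps its sign.

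Profiles over the 6 arrays were compared by the root mean square difference of log2 values after each probe set was centred on its own mean, among 14036 named probe sets of other genes. Atf4 was at 0.054 from Herpud1 and 0.055 from Xbp1, closer than all but 0.207% and 0.235% of those probe sets. Ddit3 was at 0.13 from Xbp1, 0.14 from Atf4 and 0.15 from Herpud1, with 0.435%, 0.613% and 0.762% of the probe sets closer. Ranked from Atf4 instead, 23.9% of the probe sets were closer than Ddit3, so these shares depend on the gene taken as centre. Asns was at 0.45 from Ddit3 and 0.33 from Atf4, with 98.5% and 91.2% of the probe sets closer. The arrays are few, the first 4 members share their lowest array, and the members were picked with this contrast known. Likeness is therefore a description of these 6 arrays, and its shares are not read as support.

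The genes outside the set most like Ddit3 were Kmt2d, a histone methyltransferase gene, at 0.061, Dnajb1, an Hsp40 co-chaperone gene, at 0.072, and the potassium channel gene Kcnj14 at 0.077. Dnajb1 measured 891, 1059 and 925 on the congenic arrays and 586, 754 and 693 on the S arrays, the same order of low and high S arrays as Ddit3. Most like Atf4 were Zmym2 at 0.031, Mfge8 at 0.034 and Socs5 at 0.038. Most like Asns were the transcription factor gene Tfcp2l1 at 0.049, Tmem234 at 0.057 and L3mbtl2 at 0.062. Tfcp2l1, which is expressed in the distal nephron, measured 1199.6, 1169 and 1013 on the congenic arrays and 1528, 1395 and 1354 on the S arrays, with congenic replicate 3 lowest and S replicate 1 highest, as for Asns.

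The rest of the pathway was read from 7 lists of 153 genes, of which 142 had a probe set and 131 passed the filter on low signal. None of the 131 passed limma's adjusted threshold (0 genes), and the counts below use an unadjusted p under 0.05, which 6.62% of all tested genes had (2.96% higher and 3.67% lower in congenic). Among kinases, eIF2 subunits and their regulators, log2 fold changes were positive in 11 of 20 genes (median 0.0046), and 2 had an unadjusted p under 0.05, both lower. Eif2ak4, the gene of the amino acid sensor GCN2, measured 125, 89.9 and 110 on the congenic arrays and 137, 159 and 119 on the S arrays, a log2 fold change of -0.32 (SE 0.13). Its groups overlapped through congenic replicate 1. Eif2a, a separate initiation factor gene, had a log2 fold change of -0.19 and Ppp1cb, a catalytic subunit that GADD34 recruits, of 0.13.

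Other transcription factors of the response, the bZIP partners among them, were positive in 7 of 10 tested genes, with a median of 0.063 and 1 gene at an unadjusted p under 0.05. That gene was Atf3, induced by ATF4 and by many other stresses, with 115, 114 and 92.2 on the congenic arrays and 80.8, 80.5 and 98.1 on the S arrays, a log2 fold change of 0.26 (SE 0.11). S replicate 3 lay within the congenic range. Cebpd and Cebpb had log2 fold changes of 0.20 and 0.24, and Cebpb was at 0.088 without S replicate 1.

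Amino acid response and ATF4 targets other than Asns and Trib3 were positive in 20 of 30 tested genes, with a median of 0.049 and a range of -0.27 to 0.52. Of the 30, 4 were higher and 1 lower at an unadjusted p under 0.05. Jmjd6, a hydroxylase gene, measured 161, 152 and 149 on the congenic arrays and 121, 125 and 79.3 on the S arrays, so that its log2 fold change was 0.47 (SE 0.14), or 0.29 without S replicate 3. Mthfd2, an enzyme of mitochondrial folate metabolism, was dim at 32.8, 47.4 and 68.5 on the congenic arrays and 24.1, 31.5 and 30.7 on the S arrays, so that its log2 fold change was 0.52 (SE 0.19), or 0.32 without congenic replicate 3. The other 2 higher ones, named after their values were seen, were also dim. The stress cytokine Gdf15 measured 42.9, 32.3 and 40.3 on the congenic arrays and 21.0, 30.5 and 29.2 on the S arrays. Its log2 fold change was 0.35 (SE 0.15), and 0.076 at its lowest under the alternatives. The secreted glycoprotein Stc2 measured 30.9, 53.7 and 38.5 on the congenic arrays and 26.3, 13.3 and 34.9 on the S arrays. Its log2 fold change was 0.50 (SE 0.22), or 0.28 without S replicate 2.

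The 1 lower gene of that list was Slc1a4, a transporter of neutral amino acids. It measured 77.0, 84.2 and 71.7 on the congenic arrays and 107, 92.9 and 90.7 on the S arrays, a log2 fold change of -0.27 (SE 0.10). Like Asns it had no overlap, was highest on S replicate 1 and lowest on congenic replicate 3. Across the list, 4 genes did not overlap and were higher (Jmjd6, Mthfd2, Gdf15 and Chac1) and 2 did not overlap and were lower (Slc1a4 and Cbs), 6 of 30, where 12.7% of all genes did not. Congenic minus S was 0.21 (SE 0.11) for Chac1, a glutathione-degrading target of ATF4, and -0.035 (SE 0.060) for Cbs, of cysteine synthesis. Chac1 and Cbs, too, were named after their values were seen.

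Aminoacyl-tRNA synthetases, many of which ATF4 induces, were positive in 10 of 19 tested genes, with a median of 0.016. Wars1, for tryptophan, measured 170, 255 and 190 on the congenic arrays and 254, 250.03 and 250.1 on the S arrays, a log2 fold change of -0.29 (SE 0.12), with congenic replicate 2 above all S arrays. Congenic minus S was 0.31 (SE 0.14) for Cars1, for cysteine, and -0.11 (SE 0.073) for Lars1, for leucine. Without congenic replicate 3, the array with adrenal transcripts, Cars1 was at 0.19 and Lars1 at -0.16, and without S replicate 1 Lars1 was at -0.065. Other probe sets gave 0.054 for Wars1, 0.049 and 0.14 for Cars1 and 0.037 for Lars1, so probe sets of 1 gene gave different values.

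**Figure D5:**
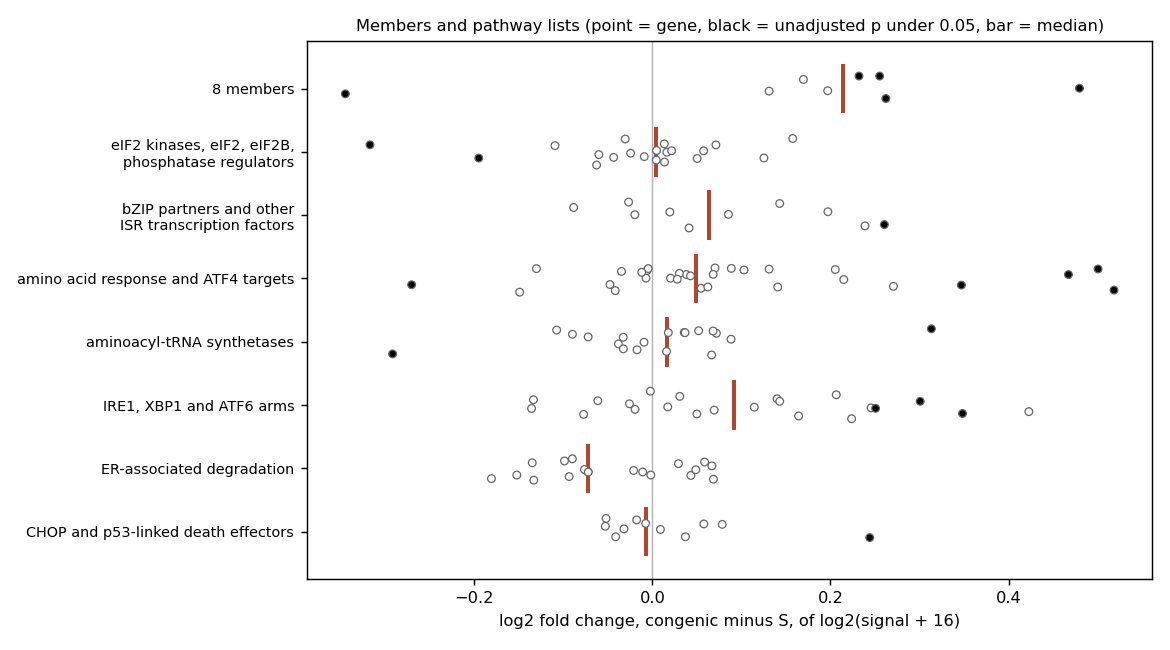
Log2 fold change, congenic minus S, of each tested gene (points, 1 probe set a gene) in the 8 members and the 7 pathway lists, with the median as a bar and genes at an unadjusted p under 0.05 in black. The list medians lie between -0.072 and 0.092, and Asns, at -0.34, is the leftmost point of the plot.

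Genes of the IRE1, XBP1 and ATF6 branches were positive in 15 of 22 tested genes, with a median of 0.092. At an unadjusted p under 0.05, 3 were higher and 0 lower, and these 3 did not overlap, 13.6% of the 22. Of all genes, 5.63% were higher without overlap and 12.7% did not overlap in either direction. Dnajb9, an ER co-chaperone and XBP1 target, measured 722, 663 and 667 on the congenic arrays and 491, 611 and 560.1 on the S arrays, a log2 fold change of 0.30 (SE 0.083). Sdf2l1, an ER chaperone partner, measured 263, 266 and 230.0 on the congenic arrays and 213, 209.9 and 206 on the S arrays, a log2 fold change of 0.25 (SE 0.079). In Sdf2l1 the S arrays lay close together and S replicate 1 was the highest of them. Manf, a secreted ER stress protein, measured 691, 728 and 749 on the congenic arrays and 409, 655 and 667 on the S arrays, and its log2 fold change of 0.35 (SE 0.15) was 0.12 without S replicate 1.

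ER-associated degradation, the pathway that Herpud1 serves, showed the lowest list median, -0.072, with 6 of 19 tested genes positive and 0 at an unadjusted p under 0.05. The median was -0.040 without congenic replicate 2, -0.044 without congenic replicate 1 and -0.045 without S replicate 1. Edem1, which hands misfolded glycoproteins to degradation, measured 909.1, 909.3 and 943 on the congenic arrays and 1015, 963 and 981 on the S arrays, a log2 fold change of -0.099 (SE 0.054) with no overlap. Derl1 and Sel1l, of the retrotranslocation complex, had log2 fold changes of -0.13 and -0.15, and Derl1 was at -0.061 without S replicate 1 and Sel1l at -0.088 without congenic replicate 3. Other probe sets gave -0.013 and -0.11 for Edem1 and 0.086 and -0.15 for Derl1. Only Edem1 and Ufd1 (-0.090, named after its values were seen) of the 19 did not overlap, both lower. Of all genes, 7.07% were lower without overlap and 12.7% did not overlap in either direction.

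Genes that CHOP or p53 link to cell death were positive in 5 of 11 tested genes, with a median of -0.0075. Ero1a, the ER oxidase gene and CHOP target, measured 184, 179 and 175 on the congenic arrays and 147, 156 and 144 on the S arrays, a log2 fold change of 0.24 (SE 0.078) with no overlap, and 0.33 in a second probe set. It was the 1 gene of this list with an unadjusted p under 0.05. Trib2, a relative of Trib3, had a log2 fold change of -0.053, and 0.069 in a second probe set, and Gadd45b, a stress-induced signalling gene, of 0.078.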

How the data were processed

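Signals were deposited by the authors as 1 intensity per probe set for 6 arrays, made with MAS5 per the submitters' processing notes, on a linear scale. The MAS5 version, scaling target and detection calls are not given in the sources used here, and scaling hides any shift common to most transcripts. Symbols came from the platform annotation, updated by gene ID to RefSeq's GRCr8 table (20758 of 20826 probe sets with 1 symbol matched).

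Control probe sets (57) and those whose mean signal lay below the 40th percentile were left out. The other 18625 were fitted as log2(signal + 16) with limma 3.58.1 in R 4.3.3 (lmFit, eBayes with trend, 2-sided, Benjamini-Hochberg at 0.05). The fit was also run on simulated data in which 200 probe sets differed by a set ratio. It recovered 0% of them where the ratio was 1.25, 52% at 1.5 and 88% at 2. False calls numbered 0, 6 and 11, in that order. Measured ratios of means were 1.41 for Ddit3, 1.17 for Atf4, 1.20 for Xbp1 and 1.19 for Herpud1. For Asns, S over congenic was 1.29. A missing call at these sizes therefore does not show that a gene is unchanged. The pseudocount of 16 makes fold changes too small where signal is low. Each gene was represented by its brightest probe set. Precision is limited by the number of arrays, and the median SE of a log2 fold change was 0.105. The pools held different rats as far as the design text says, so the spread is biological and technical.

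Members and lists were chosen with earlier results of these data known. The text names every member probe set, the 3 genes of each list with the smallest unadjusted p, and the 3 nearest profiles of Ddit3, Atf4 and Asns. Genes outside that rule are marked. The alternatives were pseudocounts of 1 and 64, no filter and a filter at the 60th percentile, quantile normalization, median centring, a replicate block, eBayes without trend, arrays left out, and all probe sets of a gene.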

Additional observations from a re-analysis of the deposited data

How the results depend on the processing

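The count of probe sets called at an adjusted p under 0.05 was 0 in the fit of all arrays and 0 to 1 with 1 array left out in turn, the 1 without congenic replicate 2; it was 0 under the other alternatives run. The median log2 fold change of the 8 members was 0.21, 0.15 to 0.27 with 1 array left out (lowest without S replicate 1, highest without S replicate 3), and 0.15 with congenic replicate 2 against S replicates 2 and 3, which was run for values without a test. The members whose groups do not overlap numbered 5 and, with 1 array left out, 5 to 7 (not counted with congenic replicate 2 alone). Leaving out an array can only keep or raise that count, and the share over all probe sets was 12.5% with all arrays and 20.7% to 27.4% with 1 left out. Of 141 fold changes of member probe sets under the alternatives, 139 kept their direction and none passed the adjusted threshold; Eif2ak3 reversed with congenic replicate 2 alone, at -0.11 against the 3 S arrays and -0.12 against S replicates 2 and 3. Ppp1r15a ran from 0.043 without S replicate 2 to 0.32 without S replicate 3. Of 550 fold changes of other named genes, run after the data were seen, 542 kept their direction. In both counts, the filters, the replicate block and eBayes without trend return the fold change of the fit of all arrays. Those settings could not turn a direction. Wars1 was at 0.020 with congenic replicate 2 against the 3 S arrays and at 0.027 against S replicates 2 and 3, where Derl1 was at 0.035, Trib2 at 0.022 and Gadd45b at -0.075. Without congenic replicate 1, Trib2 was at 0.011 and Gadd45b at -0.017, and without S replicate 1 Gadd45b was at -0.077. With 1 array left out, Trib2 ran from -0.096 to 0.011 and Gadd45b from -0.077 to 0.17. The cause of these was not tested. List medians near 0 changed sign with 1 array left out for the eIF2 list (-0.012 to 0.0073), the synthetases (-0.021 to 0.0079) and the death effectors (-0.025 to 0.042), and not for the other 4, of which the IRE1 list, at 0.092, was at -0.017 with congenic replicate 2 against S replicates 2 and 3. Deviations of same-numbered arrays correlated at 0.037, 0.014 and 0.021, and those of other pairs at -0.046 to 0.038. The cages behind each pool are not given in the sources used here, so whether the numbers pair the pools is not known. The replicate block gave 0 called probe sets and 1293 at an unadjusted p under 0.05, against 1232 without it. With the block, limma's unadjusted p was 0.069 for Atf3, 0.062 for Gdf15, 0.054 for Stc2 and 0.051 for Mfge8, all under 0.05 without it, and no other named gene changed side. Low signal limits Trib3 most.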
